A study of Mus musculus with 8 samples.

Results

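*Trp53*, the mouse gene for the transcription factor p53, and 9 of its direct target genes (*Cdkn1a*, *Mdm2*, *Ccng1*, *Zmat3*, *Sesn1*, *Phlda3*, *Eda2r*, *Trp53inp1* and *Aen*) were followed in resting bone marrow–derived mast cells (BMMCs). They were chosen by gene symbol because a DNA break made by Cas9 can activate p53. All 10 were among the 24059 genes in the count files, and all 10 passed the filter on low counts that left 14934 genes for testing. BMMCs are mast cells grown from marrow in IL-3, here from 6- to 8-wk-old C57BL/6 mice. The cells of the scrambled group (4 samples, labelled *Zc3h12a* WT) were electroporated with Cas9 ribonucleoproteins (RNPs) carrying a nontargeting guide. Those of the *Zc3h12a* RNP group (4 samples, labelled *Zc3h12a* KO) received RNPs with a mixture of 3 guides against *Zc3h12a*, which encodes the RNase Regnase-1. Both groups therefore had Cas9 and electroporation, and both were lysed 1 wk later as unsorted, uncloned populations in which edited and unedited cells were not separated. Cells without RNP and earlier times were not analysed here. The comparison therefore bears on the targeting guides at 1 wk, not on electroporation or on the first hours after a cut. These guides both cut DNA and target *Zc3h12a*, so a cut and a loss of Regnase-1 cannot be told apart here.

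p53 is kept low in unstressed cells because MDM2, an E3 ubiquitin ligase and itself a p53 target, marks it for degradation. After DNA damage, kinases such as ATM and ATR stabilize p53, which then binds response elements near its target genes and raises their transcription. The control is mainly on the protein, so the mRNA of the targets is read more often than that of *Trp53*. In many tissues these target genes are also transcribed by other factors when p53 is not induced.

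The guide sequences are shown because each cut site is the damage in question. Every *Zc3h12a* guide had 1 perfect match next to a PAM in the GRCm39 genome, and the scrambled guide had 0. Sites with mismatches were not searched for any guide, the scrambled one included, so cuts elsewhere were not examined. The guides are written 5′ to 3′, with the PAM in the genome in capitals.
crRNA 1: caccactccgtcggattcgaAGG
crRNA 2: ttgcttccgtcgatgaccacAGG
crRNA 3: ggacaggcttcgttccacaaGGG
Scrambled: ggttcttgactaccgtaatt
The protospacer of crRNA 1 lies at chr4:125014763-125014782 (plus strand) in exon 4 of the 6 exons of *Zc3h12a*. Those of crRNA 2 (chr4:125020411-125020430, plus strand) and crRNA 3 (chr4:125020811-125020830, plus strand) are both in exon 2. All 3 are in coding sequence, with cuts after coding bases 703, 414 and 14 of 1788, respectively.

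The p53 response element is a pair of adjoining 10-base units, each with a C and a G at fixed places around its centre. The sequence around each member's start of transcription was searched, on both strands, for the consensus p53 response element without a spacer between the units, keeping those C and G bases. Matches are shown with these bases in capitals, 5′ to 3′ on the strand of the gene. They are matches of letters to a consensus, and binding of p53 to them was not tested.
Cdkn1a: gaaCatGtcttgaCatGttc
Ccng1 before the start: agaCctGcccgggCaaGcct
Ccng1 after the start: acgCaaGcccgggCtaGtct
Zmat3 after the start: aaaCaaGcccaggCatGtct
Zmat3 before the start: gagCaaGtctgggCttGtta
Eda2r: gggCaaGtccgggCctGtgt
The *Zmat3* match after the start (chr3:32418480-32418499, minus strand) had 0 mismatches to the consensus and lay 1418 bases inside the gene. That of *Cdkn1a* (chr17:29309902-29309921, plus strand) had 1 mismatch and lay 2826 bases upstream of the start used. The *Ccng1* matches, at chr11:40646289-40646308 and chr11:40645763-40645782 (minus strand), had 1 mismatch each and flanked the start at 161 bases before and 365 bases after it. The other *Zmat3* match (chr3:32424300-32424319) had 1 mismatch at 4402 bases upstream, and the *Eda2r* match (chrX:96420140-96420159, minus strand) had 2 mismatches at 689 bases downstream. Within 5000 bases on either side of the start, 3 of 10 members and 1.67% of 21770 genes held an element with at most 1 mismatch, and 4 members and 9.86% of genes held one with at most 2 mismatches. Within 2500 bases these values were 2 members and 0.703% of genes, and 3 members and 4.86% of genes. The wider window was chosen after the narrower one had been seen. The remaining 6 members held no such letters in these windows, which says nothing about the binding of p53.

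Levels are given in CPM (a gene's counts over the library total, scaled to a common library size) after TMM normalization, and 19610240 to 33986762 reads were counted per sample. Samples with the same replicate number were treated as a pair. A difference is the log2 fold change of *Zc3h12a* RNP over scrambled RNP, tested by quasi-likelihood in edgeR with the pairs as a block. It was called where the p adjusted over all genes by Benjamini-Hochberg was no higher than 0.05 and the log2 fold change exceeded 0.5 in size. The targeted transcript itself was at 34.8 ± 6.65 CPM (SD, n = 4) after scrambled RNP and 33.2 ± 5.91 CPM (n = 4) after *Zc3h12a* RNP. In scrambled replicates 1 to 4, *Zc3h12a* was at 25.0, 38.0, 37.1 and 39.3 CPM, and in the *Zc3h12a* RNP samples at 26.8, 41.1, 32.2 and 32.6 CPM. The groups overlapped (log2 fold change −0.06, 95% interval −0.29 to 0.16, adjusted p = 0.96 in edgeR's test), so this transcript's level alone does not check the labels. Reads across the cut sites were not examined, and the effect of the edits on this transcript was not tested. The summed level of 10 mast cell markers was 51070 to 60930 CPM after scrambled RNP and 49230 to 52180 CPM after *Zc3h12a* RNP. *Cpa3* made up most of this sum, with group means of 31170 and 27810 CPM. *Hdc* was at 147 and 82.0 CPM (log2 fold change −0.75, adjusted p = 0.645 in edgeR's test) and *Tpsb2* at 6733 and 5494 CPM (−0.28, adjusted p = 0.554). Both were lower in 4 of 4 pairs, *Hdc* by only 0.03 in pair 2. Of the 10, only *Mcpt4* had a log2 fold change above 0 (0.33, at 4.2 and 5.3 CPM). The summed level of 4 basophil markers was 501 to 542 and 445 to 511 CPM. *Cd200r3* made up nearly all of this sum, with group means of 511 and 476 CPM after scrambled and *Zc3h12a* RNP. *Mcpt8* was at 4.08 and 5.10 CPM, *Prss34* at 1.44 and 1.37 CPM and *Cebpa* at 0.12 and 0.18 CPM. Each list of macrophage, neutrophil, B cell, T cell, erythroid and stromal markers stayed under 6.57 CPM in sum. *Cd3e*, *Cd4*, *Cd8a* and *Cd3g* included 1 gene at 0 in all samples.

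No p53 member passed the thresholds, and neither did any other gene in this test: 0 of 10 members and 0% of the 14934 genes tested, although 317 genes were higher and 605 lower at an unadjusted p at or under 0.05. DESeq2 called 60 genes and limma-trend 1, with 0 members in each. At an unadjusted p at or under 0.05, 1 member was higher after *Zc3h12a* RNP (*Phlda3*), beside 2.12% of all genes, and 0 members were lower, beside 4.05% of all genes. *Zmat3* was the 1 member that was higher in all 4 pairs, beside 4.98% of genes, and 0 members were lower in all 4 pairs, beside 8.54% of genes. The fitted log2 fold changes ran from −0.13 (*Sesn1*) to 0.30 (*Phlda3*). Of the 10, 6 had values above 0 and 4 below (5 and 5 under RLE scaling and without replicate 4, 8 and 2 without replicate 1 or replicate 2). The median was 0.07 over the members and 0.02 over the 9 targets without *Trp53*, beside 0.04 over all genes tested.

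**Figure D1:**
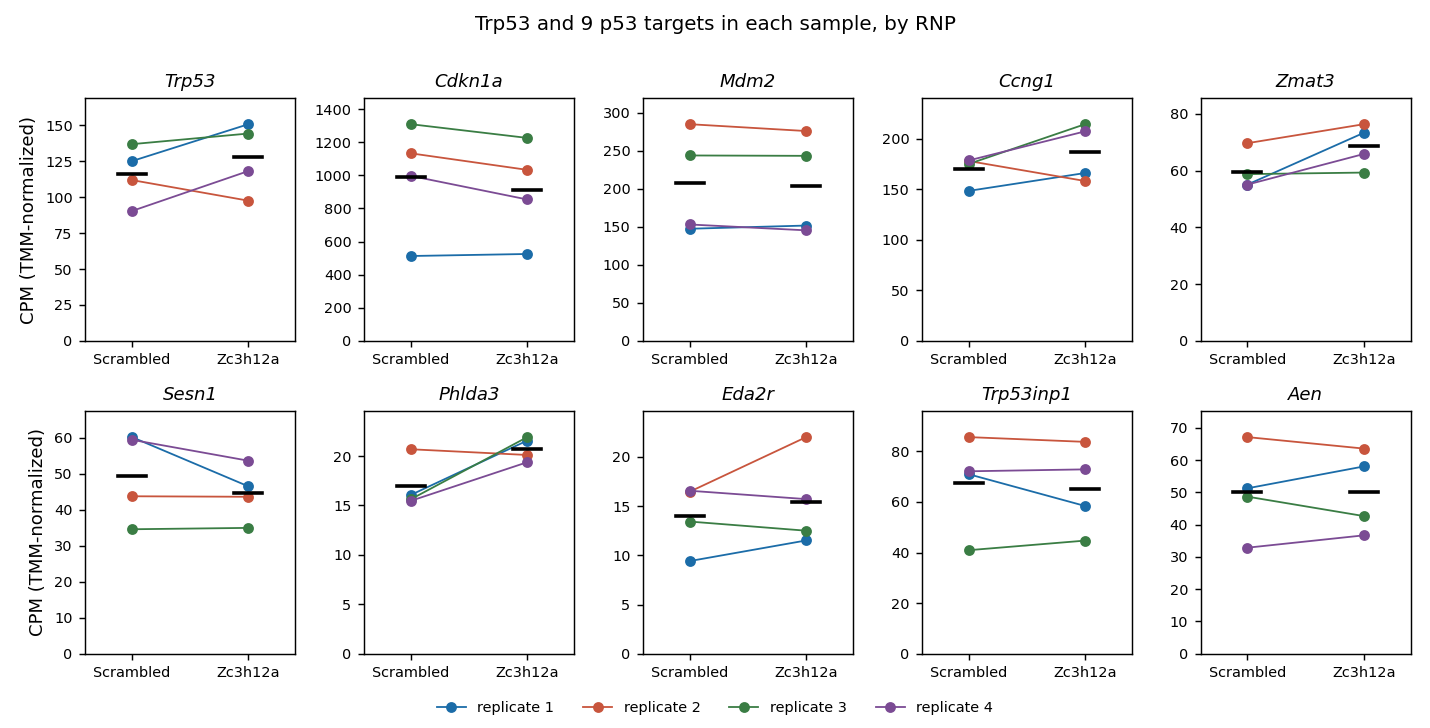
Level of each member in the 8 samples (vertical axes, CPM after TMM normalization, each starting at 0) by RNP. Lines join samples of the same replicate number and bars are group means (n = 4). For *Mdm2* the lines are nearly flat, with replicates 2 and 3 far above replicates 1 and 4, for *Cdkn1a* replicate 1 lies far below the others, and 3 of the 4 lines for *Phlda3* end higher, near the level of replicate 2.

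*Trp53* was measured at 125, 112, 137 and 90.4 CPM in scrambled replicates 1 to 4. In *Zc3h12a* RNP replicates 1 to 4 it was at 151, 97.5, 144 and 118 CPM. The groups overlapped across most of their range, with replicate 2 lower and the other 3 replicates higher after *Zc3h12a* RNP. The log2 fold change was 0.13 ± 0.11 (SE), which is 1.10-fold with a 95% interval from 0.922- to 1.31-fold (adjusted p = 0.96). It was 0.31 without replicate 2 and 0.05 without replicate 4. Because these are bulk samples, a lower level could mean fewer cells with a transcript or less of it per cell, and these cannot be told apart here for any of the genes.

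The feedback genes of p53 were next examined. *Mdm2*, which encodes the ligase that degrades p53, was at 147, 285, 244 and 153 CPM in scrambled replicates 1 to 4 and at 152, 276, 243 and 145 CPM in the *Zc3h12a* RNP samples. Each sample lay close to its partner, and replicates 2 and 3 were well above replicates 1 and 4 under both RNPs. The differences within the pairs were at most 0.07 on the log2 scale. Its standard error was the smallest of the 10 members. The log2 fold change was −0.02 (95% interval −0.19 to 0.15), which is 0.986-fold with an interval from 0.875- to 1.11-fold (adjusted p = 0.975). *Ccng1*, encoding cyclin G1, a p53 target that acts with a phosphatase on MDM2, was at 148, 178, 175 and 178 CPM after scrambled RNP. It was at 166, 158, 214 and 207 CPM after *Zc3h12a* RNP, higher in 3 pairs and lower in replicate 2. The groups overlapped, and the log2 fold change was 0.13 ± 0.10 (SE, adjusted p = 0.96), and it was 0.29 without replicate 2 and 0.02 without replicate 3.

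*Cdkn1a*, which encodes p21, the inhibitor of cyclin-dependent kinases that carries much of the p53 cell cycle arrest, was the most abundant member. It was at 513, 1133, 1309 and 997 CPM in scrambled replicates 1 to 4. After *Zc3h12a* RNP it was at 525, 1033, 1226 and 854 CPM. Replicate 1 was the lowest under both RNPs, and 3 of 4 pairs were lower after *Zc3h12a* RNP. The log2 fold change was −0.10 ± 0.08 (SE), which is 0.930-fold with a 95% interval from 0.819- to 1.06-fold (adjusted p = 0.96). With 15135 to 34009 reads for *Cdkn1a* in each sample, its counting error was small beside the spread between replicates. *Sesn1*, encoding sestrin 1, which restrains mTORC1, was at 60.2, 43.8, 34.6 and 59.5 CPM after scrambled RNP and at 46.5, 43.6, 35.0 and 53.7 CPM after *Zc3h12a* RNP. Replicates 2 and 3 hardly differed between the RNPs, and replicates 1 and 4 were lower after *Zc3h12a* RNP, with the groups overlapping (log2 fold change −0.13, 95% interval −0.34 to 0.08, adjusted p = 0.96). Without replicate 1 the log2 fold change of *Sesn1* was close to 0 (−0.0016), and without replicate 3 it was −0.23.

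The 2 members with the largest log2 fold changes were *Phlda3* and *Zmat3*. *Phlda3* encodes a small pleckstrin homology protein that blocks AKT at the membrane. It was at 16.1, 20.7, 15.6 and 15.5 CPM in scrambled replicates 1 to 4, and at 21.6, 20.1, 21.9 and 19.4 CPM in *Zc3h12a* RNP replicates 1 to 4. Scrambled replicate 2 alone made the groups overlap, since the other 3 scrambled samples were below every *Zc3h12a* RNP sample. The means were 17.0 ± 2.50 and 20.7 ± 1.20 CPM (SD, n = 4). The log2 fold change of 0.30 (95% interval 0.05 to 0.55) is 1.23-fold, with an interval from 1.03 to 1.46, and it missed the adjusted threshold (unadjusted p = 0.0262, adjusted p = 0.70 in edgeR's test). Without replicate 2 the log2 fold change was 0.47 (adjusted p = 0.25), and without replicate 3 it was 0.18 (adjusted p = 0.996). The adjusted p over the alternatives ran from 0.25 to 1. *Zmat3*, encoding a zinc finger protein that binds RNA and changes splicing, was at 55.1, 69.7, 58.8 and 55.1 CPM after scrambled RNP and at 73.4, 76.4, 59.3 and 65.9 CPM after *Zc3h12a* RNP. The groups overlapped although every pair was higher after *Zc3h12a* RNP, with replicate 3 by only 0.01 on the log2 scale and replicate 1 by 0.41. The log2 fold change was 0.20 (95% interval 0.00 to 0.41, with its lower bound just under 0), which is 1.15-fold (unadjusted p = 0.0543, adjusted p = 0.82).

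The remaining members have roles in cell death. *Eda2r*, a receptor of the TNF receptor family for ectodysplasin A2, was at 9.42, 16.5, 13.4 and 16.6 CPM after scrambled RNP and at 11.5, 22.0, 12.5 and 15.7 CPM after *Zc3h12a* RNP. It was higher in replicates 1 and 2 and lower in replicates 3 and 4 (log2 fold change 0.13, 95% interval −0.14 to 0.41, adjusted p = 0.96). *Trp53inp1*, encoding a nuclear protein that promotes p53 phosphorylation and autophagy, was at 71.0, 85.6, 40.9 and 72.1 CPM after scrambled RNP and at 58.4, 83.7, 44.7 and 72.9 CPM after *Zc3h12a* RNP. Replicate 3 was the lowest and replicate 2 the highest under both RNPs, and the pairs went both ways (log2 fold change −0.04, 95% interval −0.25 to 0.17). *Aen*, encoding a nuclease that takes part in apoptosis, was at 51.3, 67.2, 48.7 and 32.9 CPM after scrambled RNP and at 58.1, 63.6, 42.7 and 36.7 CPM after *Zc3h12a* RNP. Its group means of 50.0 ± 14.0 and 50.3 ± 12.7 CPM (SD, n = 4) were nearly equal, with the groups overlapping (log2 fold change 0.02, 95% interval −0.20 to 0.23). Under another scaling (RLE) the log2 fold change of *Aen* was below 0.

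**Figure D2:**
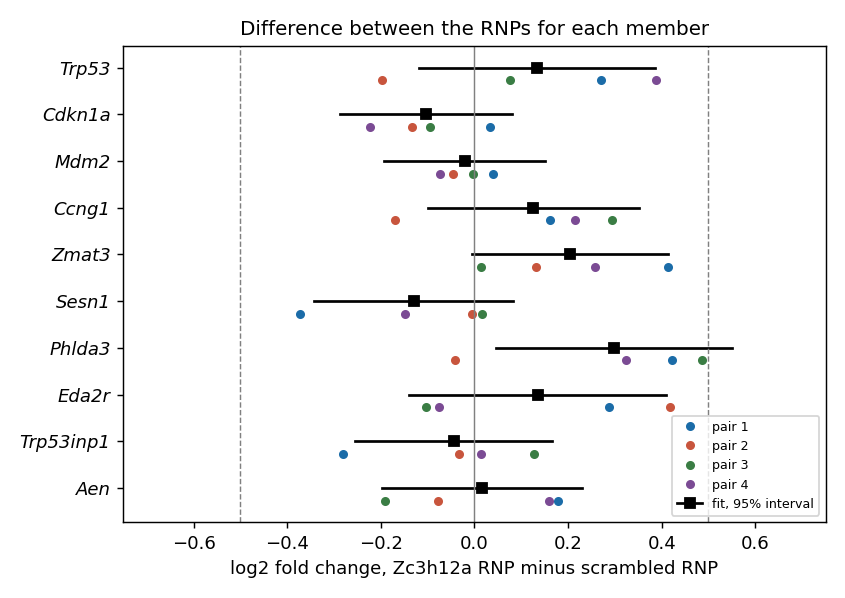
Log2 fold change of each member (horizontal axis, *Zc3h12a* RNP minus scrambled RNP) from edgeR's fit with its 95% interval (squares and bars) and the difference within each of the 4 pairs (points). Dashed lines mark a log2 fold change of 0.5 in either direction. The interval of *Phlda3* starts above 0 and is the 1 that reaches past 0.5, and the points of *Mdm2* are all close to 0.

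The replicates were then compared with each other, since most members spread more between replicates than between RNPs. A joint edgeR test of the replicate numbers, given the RNP, called 6 of 10 members at an adjusted p at or under 0.05 (*Cdkn1a*, *Mdm2*, *Sesn1*, *Eda2r*, *Trp53inp1* and *Aen*), beside 28% of all genes tested. The adjusted p was 0.00233 for *Cdkn1a* and 0.00268 for *Mdm2*. This count rests on replicate 1: without it 1 member was called (*Trp53inp1*), beside 9.62% of genes, and the adjusted p was 0.327 for *Cdkn1a* and 0.0525 for *Mdm2*. Without replicate 2, 3 or 4 it was 5, 4 and 5 members, beside 16.1%, 9.97% and 19.3% of genes. *Trp53*, *Ccng1*, *Zmat3* and *Phlda3* did not pass this test, with adjusted p from 0.0958 to 0.623. Under upper quartile scaling 7 members passed, with *Trp53* and *Ccng1* among them and without *Eda2r*, beside 26.2% of genes.

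The mean of the pair of samples of a replicate differed 2.44-fold for *Cdkn1a* between replicate 1 (519 CPM) and replicate 3 (1267 CPM). For *Trp53inp1* the range was 1.98-fold, from 42.8 CPM in replicate 3 to 84.7 CPM in replicate 2. *Mdm2* and *Aen* both ranged 1.88-fold, each with its highest mean in replicate 2. The lowest mean of *Aen* was in replicate 4, whereas *Mdm2* was nearly equally low in replicate 1 (149.4 CPM) and replicate 4 (149 CPM). The members thus did not share an order of replicates: replicate 3 was the highest for *Cdkn1a* but the lowest for *Sesn1* and *Trp53inp1*. On the log2 scale, the range of the replicate means was larger than the largest difference within a pair for 8 of 10 members, beside 59.7% of all genes tested. It was 12.2 times larger for *Mdm2* and 5.78 times larger for *Cdkn1a*. The exceptions were *Zmat3* and *Phlda3*. A replicate number may stand for the mouse, the culture or the day of transfection, which cannot be told apart here.

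**Figure D3:**
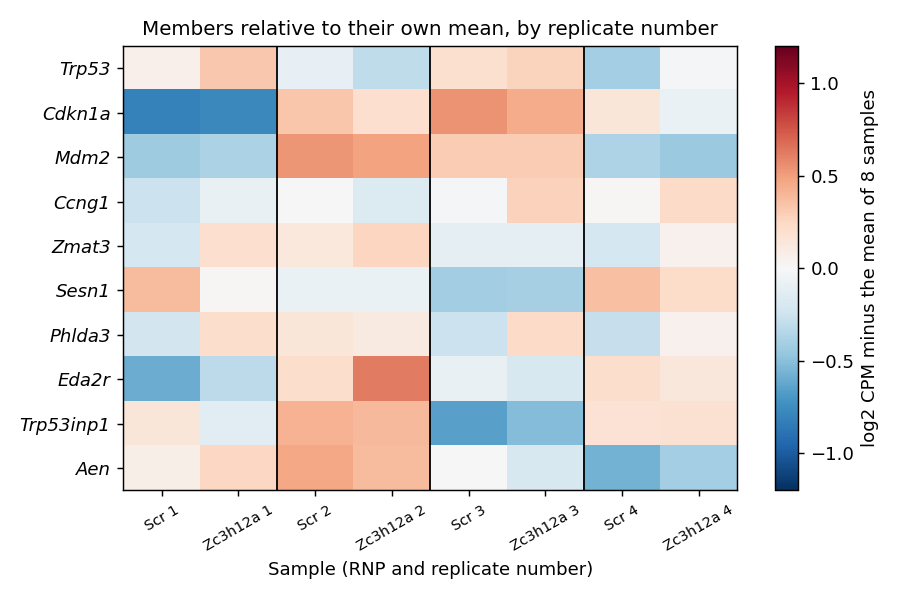
Log2 CPM of each member minus its mean over the 8 samples (color), with samples grouped by replicate number (vertical lines). Neighboring columns of a replicate have like colors for *Cdkn1a*, *Mdm2*, *Trp53inp1* and *Aen*, and the rows differ in which replicate is high.

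Across the 8 samples, which are 4 pairs and share their library depth and scaling, the 36 correlations of log2 CPM between 2 target members had a median Pearson's r of 0.111. They ran from −0.759 between *Mdm2* and *Sesn1* to 0.736 between *Cdkn1a* and *Mdm2*, with 22 above 0 and 14 below. The r of *Trp53* with its targets ran from −0.723 for *Eda2r* to 0.334 for *Phlda3*. When the 9667 genes whose log2 CPM averaged above 2 were ranked, those most like *Cdkn1a* in log2 CPM over the 8 samples were *Nfil3* (r = 0.988), *Ccl3* (r = 0.977) and *Ccl7* (r = 0.971). For *Mdm2* they were *Nbn* (r = 0.981), *Usp17ld* (r = 0.967) and *Klf16* (r = 0.964), and for *Trp53* they were *Pimreg* (r = 0.956), *Brip1os* (r = 0.954) and *Bin1* (r = 0.951). These are descriptions over the same 8 samples that gave the members' levels.

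Levels were compared between members per kilobase of exon, in CPM per kb, using the union of exons in GENCODE M39. This union takes the exons of every annotated transcript, from 2588 bases for *Phlda3* to 11442 for *Zmat3*. It can be longer than the mRNA made in these cells, which was not determined, so the order also depends on the annotation. *Cdkn1a* stood highest, with a median of 168 and a range of 84.8 to 217 CPM per kb over the 8 samples, without overlap with the next member. *Ccng1* (median 40.1), *Mdm2* (25.7) and *Trp53* (16.5) followed, with ranges that overlapped from each to the next. The range of *Trp53*, from 12.2 to 20.4 CPM per kb, did not reach that of *Trp53inp1* (median 9.74). Below it *Sesn1* (8.96), *Phlda3* (7.63), *Zmat3* (5.47), *Aen* (4.40) and *Eda2r* (1.94) each overlapped with their neighbors. The lowest member, *Eda2r*, still had 297 to 508 reads per sample.

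Other genes of the p53 pathway were examined in 5 lists. Of all 14934 genes tested, 8635 had log2 fold changes above 0, beside which the counts of each list are to be read. The genes named are the 2 highest and the 2 lowest log2 fold changes of each list, unless stated otherwise. No gene of these lists passed the thresholds, beside 0 genes in the whole table. Of 12 targets with roles in arrest and repair, 6 had log2 fold changes above 0 and 6 below, and their median was 0.01 (−0.01 under RLE scaling). The highest were *Gtse1*, a G2 phase protein that takes p53 out of the nucleus (0.42, unadjusted p = 0.05), and the kinase gene *Plk2* (0.27). The lowest were *Ppm1d*, the phosphatase that switches the damage response off (−0.14), and the antiproliferative gene *Btg2* (−0.14). *Btg2* varied widely, at 339 ± 232 CPM after scrambled RNP and 295 ± 179 CPM after *Zc3h12a* RNP (SD, n = 4), and differed between replicates (adjusted p = 0.00043 in edgeR's test). In this list 7 of 12 genes differed between replicates, beside 28% of all genes tested.

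Of the 10 cell death targets tested, 8 had log2 fold changes above 0 and 2 below (median 0.15), and 3 were higher in all 4 pairs, beside 4.98% of all genes. Without replicate 3 this became 5 and 5, with a median of 0.03. *Pidd1*, a scaffold that activates caspase-2, was at 16.9 ± 4.70 CPM after scrambled RNP and 21.2 ± 2.57 CPM after *Zc3h12a* RNP (SD, n = 4). Its log2 fold change of 0.35 was positive in 4 of 4 pairs but missed the threshold (unadjusted p = 0.0125, adjusted p = 0.645 in edgeR's test). The death receptor gene *Tnfrsf10b* followed at 0.24, and the lowest were the autophagy gene *Dram1* (−0.07) and *Ei24* (−0.01). *Perp* was counted at 5 to 8 reads per sample and was not tested. Of the 10 targets with metabolic and other roles, 6 were above 0 and 4 below (median 0.06, and −0.05 without replicate 3), from *Ephx1* (−0.32) and *Tigar* (−0.31), the latter a fructose bisphosphatase, to *Gdf15* (0.49) and *Ddit4l* (0.58). *Gdf15*, a secreted stress cytokine, was higher in 4 of 4 pairs at an unadjusted p of 0.00592 (adjusted p = 0.518 in edgeR's test), and *Ddit4l* had only 8 to 34 reads per sample.

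Among 17 tested regulators and relatives of p53, 12 were above 0 and 5 below (11 and 6 under RLE scaling), around a median of 0.05. Of these 17, 5 were higher in all 4 pairs, beside 4.98% of all genes, and 0 were lower in all 4, beside 8.54%. Those higher were *Chek1*, *Prkdc* and, named after their values were seen, *Atm*, *Atr* and *Chek2*. *Atm* and *Atr* were both at 0.20, with an unadjusted p above 0.05 in edgeR's test. *Chek1*, the checkpoint kinase below ATR, was at 12.3 ± 3.70 CPM after scrambled RNP and 15.3 ± 3.87 CPM after *Zc3h12a* RNP (log2 fold change 0.32, higher in 4 of 4 pairs, unadjusted p = 0.0149, adjusted p = 0.662 in edgeR's test). *Prkdc*, the DNA-dependent protein kinase of end joining, named after its values were seen, had a log2 fold change of 0.23 (unadjusted p = 0.0167, adjusted p = 0.686). The highest value, 0.52 for *Trp63*, rested on 3 to 41 reads per sample, and the lowest were *Ppp1r13l* (−0.25) and *Kat5* (−0.15). *Trp73* had 0 to 4 reads per sample and was not tested.

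The list that lay farthest from the median of all genes was that of 12 cell cycle genes that p53 can hold down through p21 and the DREAM complex. Whether p53, p21 or DREAM had a part in their differences was not tested. The paper, with its own processing, reported cell cycle and DNA replication terms among its up-regulated genes and named *Cdk1*. All 12 genes of the list had log2 fold changes above 0, beside 8635 of 14934 genes. They ran from 0.03 for *E2f1* and 0.24 for *Birc5*, which encodes survivin, to 0.47 for *Cdk1*, with a median of 0.34 beside 0.04 over all genes. *Cdk1*, the kinase of mitotic entry, was at 51.5 ± 21.9 and 66.6 ± 10.6 CPM (SD, n = 4) and the replication helicase gene *Mcm5* at 95.3 ± 41.8 and 121 ± 29.6 CPM, after scrambled and *Zc3h12a* RNP, respectively. These 2 and, named after their values were seen, *Ccnb1* and *Cdc25c* reached an unadjusted p of 0.05 or less with higher values, beside 2.12% of all genes, and the lowest adjusted p of the list was 0.70 in edgeR's test. The list was not uniform over the pairs: its median difference was 0.38, −0.15, 0.13 and 0.90 in pairs 1 to 4, and 0 of its genes were higher in all 4 pairs. Without replicate 4 the median of the list was 0.14, with 11 of 12 genes above 0, and without replicate 2 it was 0.53. The median difference of the 9 target members over the same pairs was 0.16, −0.04, 0.01 and 0.01. *Trp53*, which is not among these 9, differed by 0.27, −0.20, 0.08 and 0.39 in pairs 1 to 4.

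**Figure D4:**
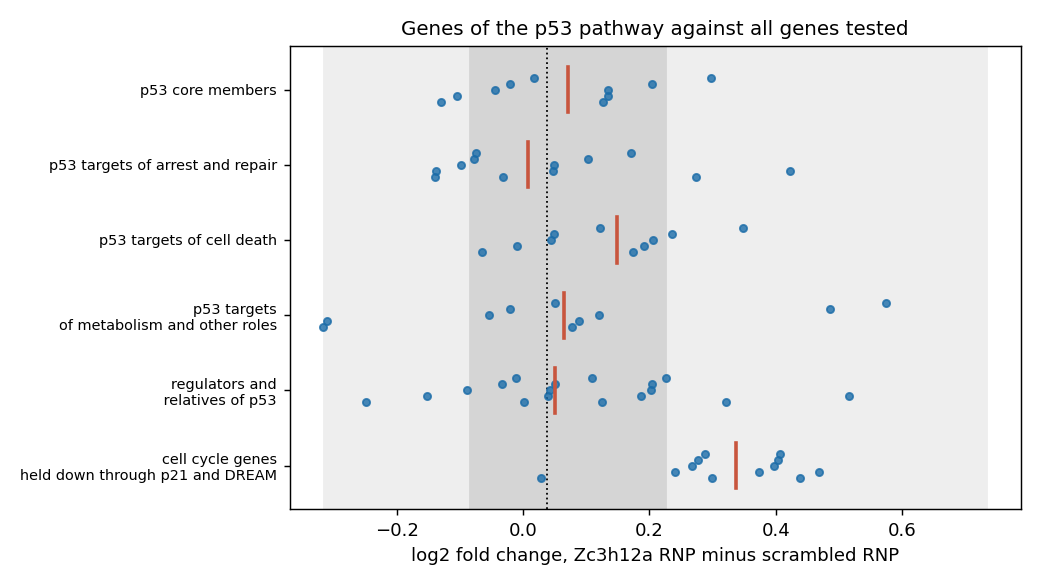
Log2 fold change (horizontal axis, *Zc3h12a* RNP minus scrambled RNP) of each tested gene of the 10 members and of the 5 other lists, with the list median as a red bar. The dark band holds the middle 50% of all genes tested, the light band the span from the 5th to the 95th percentile and the dotted line their median of 0.04, and the median of the genes held down through p21 and DREAM, at 0.34, lies to the right of the other list medians.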

How the data were processed

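The authors aligned poly(A) RNA-seq reads to GRCm39 with HISAT2 2.2.1 after FastQC 0.11.9, counted them per gene with featureCounts 2.0.1 and deposited raw counts for each of the 8 samples. The strand setting and the handling of reads with several matches are not given in the sources used here. The batch correction that the methods name is not in these counts. Counts were tested with edgeR 4.0.16 (R 4.3.3) after TMM scaling and filterByExpr, in a model of replicate number and RNP, and p was adjusted over 14934 genes. Intervals of 95% used the standard error from the F statistic and 7.51 degrees of freedom. A prior count of 2 was added for log2 CPM. DESeq2 1.42.0, limma 3.58.1, RLE and upper quartile scaling, other filters, no block and leaving out each replicate were alternatives. The fits were also run on simulated data with a fixed spread between replicates. That spread was not matched to these data, so the fits were not checked at the spread found here. Plots were made in Python 3.11.15 using matplotlib 3.10.9.

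The members and lists were chosen with earlier results of these data known. Besides the members, *Zc3h12a* and cell type markers, the genes named are the 2 highest and 2 lowest log2 fold changes of each list. Its untested genes are also named and, for *Trp53*, *Cdkn1a* and *Mdm2*, the 3 genes with the highest r. *Prkdc*, *Ccnb1* and *Cdc25c* were added for their unadjusted p after their values were seen. In the same way *Atm*, *Atr* and *Chek2* were added for being higher in all 4 pairs. Gene positions and exon lengths come from GENCODE M39 on GRCm39, not from the release used for counting.

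Pairs were set because the methods name 4 biological replicates, each taken here to have received both RNPs, and the labels do not say what a replicate number marks. After group means were subtracted, the samples of each number correlated at 0.595, 0.0752, 0.624 and 0.0414 over all genes, and samples of different numbers at up to 0.398. For the 9668 genes whose log2 CPM averaged above 2, the values were 0.756, 0.717, 0.728 and 0.719, against at most 0.137. No samples were alike within sampling noise (a chi-square of at least 53.6 per degree of freedom).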

Additional observations from a re-analysis of the deposited data

Results flagged for a closer look

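Among 62 groups of 4 samples of the genes named, 3 held a sample that stood far from the other 3 (Dixon's ratio of the gap to the range above its 95% critical value), where chance gives 3.1. For *Zc3h12a*, scrambled replicate 1 was at 25.0 CPM and the other 3 were at 37.1 to 39.3 CPM (ratio 0.846). For *Ccng1*, scrambled replicate 1 was at 148 CPM and the other 3 were at 175 to 178 CPM (ratio 0.883). For *Phlda3*, scrambled replicate 2 was at 20.7 CPM and the other 3 were at 15.5 to 16.1 CPM (ratio 0.884).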

How the results depend on the processing

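The count of members past the thresholds was 0 under each of the 11 alternatives, with a lowest adjusted p of 0.25 (*Phlda3* without replicate 2). Over the whole table, 0 genes passed in the edgeR fit, against 60 with DESeq2 (8 higher after *Zc3h12a* RNP), 40 without the filter on low counts (9 higher), 3 where every sample had at least 10 counts, 1 with limma-trend and 1 with RLE scaling. Leaving out 1 replicate gave 0 to 137 genes, with the 137 (80 higher) without replicate 2 and 2 without replicate 4. Without the replicate block 0 genes passed and the median of the 9 targets was 0.01, and the block changed no call of a member. That median, 0.02 in the report, was −0.0043 with DESeq2, −0.0045 with RLE scaling and −0.0024 to 0.10 on leaving out a replicate, lowest without replicate 4. Of 110 single values, 8 changed sign: *Aen* was −0.0043 with DESeq2, −0.0045 with RLE and −0.028 to 0.11 on leaving out a replicate, *Mdm2* was 0.012 without the filter and −0.080 to 0.049 on leaving out a replicate, and *Trp53inp1* was −0.15 to 0.081 on leaving out a replicate. The 6 members that differed between replicates became 1 to 5 on leaving out a replicate, and 6 or 7 otherwise. Among the latter they were the same 6 except under upper quartile scaling, where *Trp53* and *Ccng1* were called and *Eda2r* was not. Of the other pathway lists, the median of the arrest and repair list, close to 0, took either sign under the alternatives, and that of the metabolism list was below 0 without the block and without replicate 3. The cause of these changes was not tested. With 297 reads or more of each member in every sample, the spread between samples rather than counting limits the precision.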
